A study of Arabidopsis thaliana with 33 samples.

Results

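The transcripts of 10 genes of proline and galactinol metabolism were compared across 11 Arabidopsis thaliana genotypes. The genes were selected by locus identifier, and all 10 were found among the 33557 genes of the processed mRNA table. Of these, 6 act on proline, namely P5CS1 (AT2G39800), P5CS2 (AT3G55610), P5CR (AT5G14800), PRODH1 (AT3G30775), PRODH2 (AT5G38710) and P5CDH (AT5G62530). The other 4 act on galactinol and raffinose and are GolS1 (AT2G47180), GolS2 (AT1G56600), GolS3 (AT1G09350) and RS5 (AT5G40390).

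The study sequenced poly(A) RNA from the shoots (aerial parts) of plants aged 20 days, in 33 libraries with 3 per genotype. Per the labels the plants had no treatment and were harvested at 15:00, after growth on MS medium (6 days) and then in soil (14 days). Col-0 was the wild type, and the single mutants were dcl4-2, dcl2-1, ein5-1 and ski2-2, with 1 allele for each gene. DCL4 and DCL2 make siRNAs of distinct lengths from double-stranded RNA, EIN5 degrades cytoplasmic RNA from the 5' end, and SKI2 is a helicase that serves the exosome in degrading RNA from the 3' end. The double mutants were ein5-1 dcl4-2, ski2-2 dcl4-2, ein5-1 dcl2-1 and ski2-2 dcl2-1, and the triple mutants were ski2-2 dcl4-2 dcl2-1 and ein5-1 dcl4-2 dcl2-1. The title of the series concerns siRNAs of the length class made by DCL2, and it names repression of translation and adaptation to stress.

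Proline is an osmolyte that many plants accumulate under drought, salt and cold. It is made from glutamate by P5C synthase (P5CS), the rate-limiting enzyme, and P5C reductase (P5CR), and it is oxidised back to glutamate in mitochondria by proline dehydrogenase (PRODH) and P5C dehydrogenase (P5CDH). Galactinol synthases (GolS) join UDP-galactose to myo-inositol, and raffinose synthase moves the galactose of galactinol onto sucrose, which yields sugars that accumulate in stressed leaves and in seeds.

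The table gave 1 FPKM value per gene and genotype, pooled by the authors over the libraries, so the levels below have no SD and no n. FPKM are scaled by transcript length, so levels can be set against each other between genes. For 8 comparisons the authors' deposited table also held a log2 ratio, a p and a q. The words rose and fell are kept for genes with a q of at most 0.05, at least a 2-fold change and at least 1 FPKM in a compared genotype. Most q values given here sit at the smallest one in the authors' deposited table, which was 0.000201 where ein5-1 dcl4-2 was compared and 0.000211 where ski2-2 dcl4-2 was compared. The labels number the libraries without saying whether they came from separate sowings, so p-values measure at most the spread between these samples, which may be technical. The other comparisons had no test, and genes in them are given by size, as a log2(FPKM + 1) difference of at least 1.

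The 11 columns differed in ways that touch several of these genes. The FPKM sums ran from 753957 to 1352350, and read depth was not given. The level of EIN5 was 6.88 to 11.2 FPKM where ein5-1 was present (4 genotypes) and 13.4 to 20.8 FPKM elsewhere, and DCL2 was at 1.23 to 2.35 FPKM with dcl2-1 and at 4.89 to 9.02 FPKM without it, while SKI2 and DCL4 levels overlapped between carriers and non-carriers. All plants were labelled with the same hour, but the dawn gene CCA1 lay between 3.32 and 9.34 FPKM in dcl2-1, ein5-1 dcl2-1, ski2-2 dcl2-1 and ein5-1 dcl4-2 dcl2-1, against 69.3 to 179.9 FPKM in the other 7 genotypes. The later clock gene PRR5 was at 15.1 to 31.1 FPKM in those 4 genotypes, at 11.9 and 12.7 FPKM in ein5-1 dcl4-2 and ski2-2 dcl4-2, and at 0.117 to 0.568 FPKM in the remaining 5. Leaf markers were abundant in every column, with a summed level of 9231 FPKM in ein5-1 dcl4-2, 20977 FPKM in ski2-2 dcl4-2 and 36652 to 80277 FPKM elsewhere, although LHCB1.3 was listed at 0 in dcl2-1. The root markers summed to 261.6 FPKM in ein5-1 dcl4-2 and 743.9 FPKM in ski2-2 dcl4-2, against 15.2 to 73.6 FPKM elsewhere, and 3 of the 5 were at 1 FPKM or more in ein5-1 dcl4-2 and 4 in ski2-2 dcl4-2. PYK10 alone gave 254.4 and 673.3 FPKM of these sums, and most of the sum elsewhere. In ein5-1 dcl4-2, COBL9 (0.0166 FPKM) and EXPA7 (0 FPKM) were below their Col-0 levels (0.140 and 0.0830 FPKM), all under 1 FPKM. The seed markers summed to 8.57 FPKM in ski2-2 dcl4-2 and to 0.0234 to 0.609 FPKM in the others. The flower markers summed to 2.18 to 19.5 FPKM.

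Both dcl4-2 double mutants had a high level of GolS2, but different genes led in each. P5CS1 was far above Col-0 only in ski2-2 dcl4-2, since in ein5-1 dcl4-2 it was at 129.9 FPKM, under 2-fold over Col-0. In ski2-2 dcl4-2 the P5CS1 level reached 811 FPKM, against 70.5 FPKM in Col-0, and GolS2 reached 192 FPKM, against 3.68 FPKM. In ein5-1 dcl4-2 the GolS1 level reached 309.9 FPKM, against 33.7 FPKM in Col-0, and GolS2 reached 75.4 FPKM. The triple mutants with dcl2-1 had far lower levels of these genes than the doubles, apart from GolS1 in the ski2-2 background. In aerial parts taken whole, fewer cells that express a gene and less of its RNA per cell cannot be told apart. The part of the clock state and of the leaf and root markers in these differences was not tested.

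**Figure D1:**
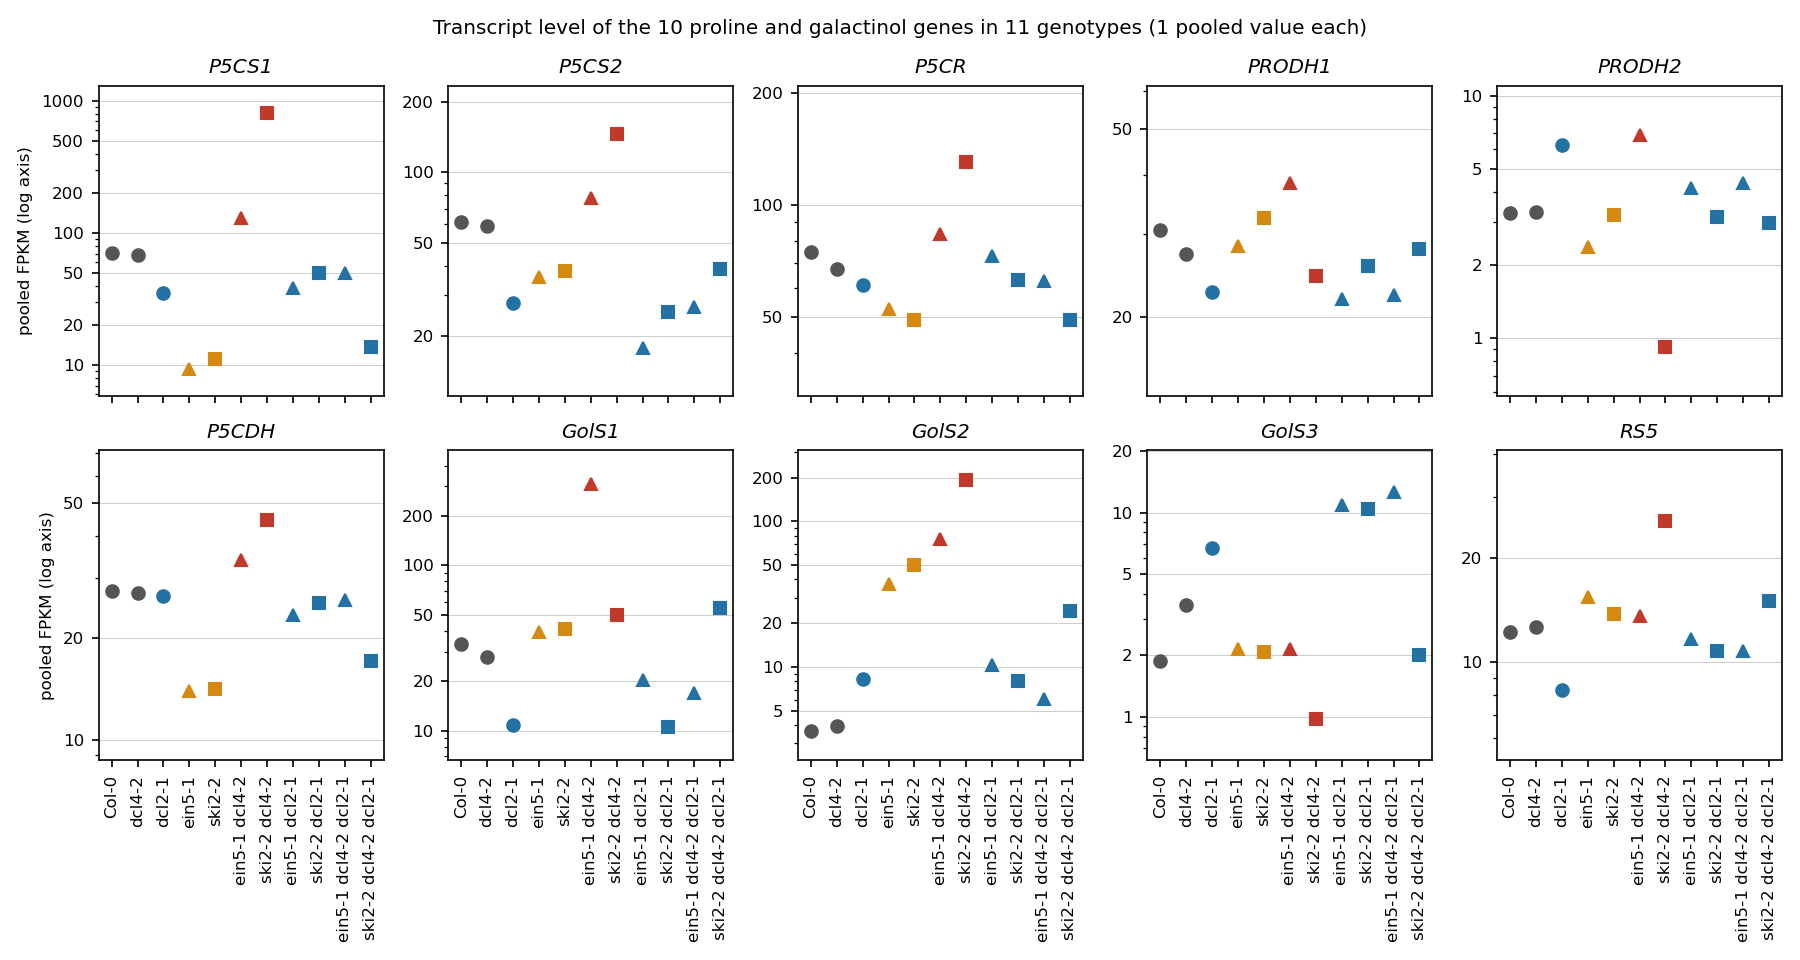
Pooled FPKM of each of the 10 genes in the 11 genotypes on a log axis, 1 point per genotype, with grey for Col-0 and dcl4-2, gold for ein5-1 and ski2-2, red for the doubles with dcl4-2 and blue for genotypes with dcl2-1 (triangles carry ein5-1, squares carry ski2-2). P5CS1 spans 9.33 to 811 FPKM and GolS2 3.68 to 192 FPKM, whereas PRODH1 stays between 21.8 and 38.5 FPKM.

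P5CS1, the P5C synthase known for its induction by drought and salt, varied most of the 10 genes, with a highest level 87.0 times the lowest. Its level was 70.5 FPKM in Col-0, 68.5 in dcl4-2 and 35.4 in dcl2-1, 9.33 in ein5-1 and 11.2 in ski2-2, 129.9 in ein5-1 dcl4-2 and 811 in ski2-2 dcl4-2, 38.3 in ein5-1 dcl2-1 and 50.002 in ski2-2 dcl2-1, and 49.5 in ein5-1 dcl4-2 dcl2-1 and 13.7 FPKM in ski2-2 dcl4-2 dcl2-1. It was therefore low in both decay single mutants and in the ski2-2 triple, and high in the doubles with dcl4-2. In ski2-2 dcl4-2 it rose over Col-0 and over ski2-2, for which the authors' deposited table gave log2 ratios of 3.54 and 6.18, both with a q of 0.000211. In ein5-1 dcl4-2 it rose over ein5-1 with a log2 ratio of 3.80 (q = 0.000201) by the authors' deposited table, and over Col-0 the ratio was 0.88, with the same q but under 2-fold. The levels in ein5-1 and ski2-2 were 7.56 and 6.30 times lower than in Col-0, compared without a test. Adding dcl2-1 to ein5-1 dcl4-2 went with a log2 ratio of -1.39, and adding it to ski2-2 dcl4-2 with one of -5.88, in the authors' deposited table, and P5CS1 fell in both. Compared without a test, the ein5-1 dcl2-1 level was 4.10 times that of ein5-1 and the ski2-2 dcl2-1 level 4.47 times that of ski2-2.

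P5CS2, the other P5C synthase, known as the housekeeping copy, ranged less, from 17.7 FPKM in ein5-1 dcl2-1 through a median of 38.0 FPKM to 146 FPKM in ski2-2 dcl4-2. It was at 61.3 FPKM in Col-0, 58.9 in dcl4-2 and 77.6 in ein5-1 dcl4-2, and at 35.9 FPKM in ein5-1, 38.0 in ski2-2 and 38.7 in ski2-2 dcl4-2 dcl2-1. The lowest levels, 17.7 to 27.6 FPKM, were those of the 4 genotypes with low CCA1, and they did not overlap the 35.9 to 146 FPKM of the other 7. GolS1, GolS3 and RS5 were divided between the same genotypes, and the share of all genes divided in this way is not given here. P5CS2 rose in ski2-2 dcl4-2 over Col-0 with a log2 ratio of 1.27, over dcl4-2 with 1.33 and over ski2-2 with 1.94, and in ein5-1 dcl4-2 over ein5-1 with 1.11, in the authors' deposited table. After quantile normalization the last of these was 0.92. It fell on adding dcl2-1 to either double, with ratios of -1.55 and -1.92 in the authors' deposited table.

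The share of each P5CS copy differed between genotypes. P5CS1 made up 53.5% of the summed P5CS level in Col-0, 20.6% in ein5-1, 22.7% in ski2-2 and 26.2% in ski2-2 dcl4-2 dcl2-1. It made up 62.6% in ein5-1 dcl4-2 and 84.7% in ski2-2 dcl4-2, where the sum reached 958 FPKM against 132 FPKM in Col-0. P5CS1 was thus the minor copy in 3 genotypes and the larger one in the other 8. The longest run of bases shared by the transcripts of P5CS1 and P5CS2 was 53, and 2.87% of the 25-base words of P5CS1 also occur in P5CS2, so reads within those stretches could not be assigned to one copy.

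P5CR encodes the single reductase that completes proline synthesis. Its level had a narrower range, from 49.2 FPKM in ski2-2 dcl4-2 dcl2-1 through a median of 63.1 FPKM to 130.1 FPKM in ski2-2 dcl4-2. It was at 74.7 FPKM in Col-0, 83.5 in ein5-1 dcl4-2, 52.7 in ein5-1 and 49.2 in ski2-2. The order of the genotypes at both ends was close to that of P5CS1, with the ski2-2 dcl4-2 and ein5-1 dcl4-2 doubles highest and ein5-1, ski2-2 and the ski2-2 triple lowest. P5CR rose in ski2-2 dcl4-2 over ski2-2 (log2 ratio 1.403) and fell on adding dcl2-1 to that double (-1.405) in the authors' deposited table. Over Col-0 its ratio in ski2-2 dcl4-2 was 0.81, and over dcl4-2 0.97, both under 2-fold with q = 0.000211, as listed in the authors' deposited table.

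Promoters of P5CS1 and P5CR are shown because the levels of these genes went together over the genotypes while their promoters differ in the motifs searched. Each is the 250 bases before the annotated gene start, written 5' to 3' on the strand of the gene, from the TAIR10.1 assembly with the RefSeq annotation. P5CS1 lies at chr2:16598072-16603319 and P5CR at chr5:4785960-4787996, with 20 and 7 exons in their longest transcripts. The P5CS1 window is chr2:16603320-16603569 and that of P5CR is chr5:4787997-4788246, both on the minus strand. Capitals mark matches, on either strand, to 4 short motifs, which are CCGAC (the core of the dehydration and cold response element), ACGTG (the core of the abscisic acid response element), ACTCAT (the proline and hypoosmolarity response element) and the heat shock element of 2 inverted units, GAANNTTC or TTCNNGAA.
P5CS1: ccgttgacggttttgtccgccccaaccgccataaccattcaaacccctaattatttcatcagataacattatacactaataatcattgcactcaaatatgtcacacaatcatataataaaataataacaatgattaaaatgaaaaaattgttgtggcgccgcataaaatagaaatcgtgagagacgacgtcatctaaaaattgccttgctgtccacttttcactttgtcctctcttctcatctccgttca
P5CR: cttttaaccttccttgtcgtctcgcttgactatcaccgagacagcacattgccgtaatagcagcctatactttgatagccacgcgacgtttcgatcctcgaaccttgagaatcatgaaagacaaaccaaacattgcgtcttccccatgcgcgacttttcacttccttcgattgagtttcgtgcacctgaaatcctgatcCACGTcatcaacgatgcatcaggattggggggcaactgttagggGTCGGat
P5CS1 had no match to any of the 4 in this window, and P5CR had an ACGTG core 47 to 51 bases before the start and a CCGAC core 3 to 7 bases before it, both on the opposite strand. Over the 27443 annotated promoters of this length, CCGAC occurs in 3285 (12%), ACGTG in 6288 (22.9%), ACTCAT in 3378 (12.3%) and the heat shock element in 4432 (16.1%). A match is a description of letters and not a binding site, and a window without a match says only that these letters are not in it.

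PRODH1, the proline dehydrogenase that is known to respond to proline and to sugar shortage, had the flattest profile of the 10 genes. Its level ran from 21.8 FPKM in ein5-1 dcl2-1 through a median of 27.2 FPKM to 38.5 FPKM in ein5-1 dcl4-2, and it was at 30.6 FPKM in Col-0 and 24.5 FPKM in ski2-2 dcl4-2. It rose or fell in none of the 8 tested comparisons by the call used here. Its log2 ratios in the authors' deposited table lay between -0.79, for adding dcl2-1 to ein5-1 dcl4-2, and 0.50, for ein5-1 dcl4-2 over dcl4-2, and both had a q of 0.000201 while under 2-fold.

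PRODH2, the other proline dehydrogenase, was called in both doubles over Col-0, with opposite signs. Its level was 3.29 FPKM in Col-0, 3.32 in dcl4-2, 6.28 in dcl2-1, 2.36 in ein5-1 and 3.21 in ski2-2, 6.85 in ein5-1 dcl4-2 and 0.922 in ski2-2 dcl4-2, 4.14 in ein5-1 dcl2-1, 3.17 in ski2-2 dcl2-1, 4.34 in ein5-1 dcl4-2 dcl2-1 and 2.99 FPKM in ski2-2 dcl4-2 dcl2-1. The ein5-1 double was thus the highest of the 11 and the ski2-2 double the lowest. PRODH2 rose in ein5-1 dcl4-2 over Col-0 with a log2 ratio of 1.06 and fell in ski2-2 dcl4-2 over Col-0 with one of -1.82, in the authors' deposited table. The rise in ein5-1 dcl4-2 was under 2-fold as a log2(FPKM + 1) difference, at 0.87 over Col-0 and 0.86 over dcl4-2, and also after rescaling by quantiles (0.68 and 0.67) or by the median of ratios (0.79 and 0.77). The difference between these ratios was not tested, and both comparisons share the Col-0 libraries. PRODH2 rose again when dcl2-1 was added to ski2-2 dcl4-2, with a log2 ratio of 1.70 by the authors' deposited table.

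P5CDH, which turns P5C into glutamate after either dehydrogenase, followed P5CS1 and P5CR in its profile, and P5CS2 less closely. Its level was 27.5 FPKM in Col-0, 13.9 in ein5-1, 14.1 in ski2-2 and 17.0 in ski2-2 dcl4-2 dcl2-1, which were the lowest, and 34.0 in ein5-1 dcl4-2 and 44.7 in ski2-2 dcl4-2, which were the highest. The other 5 genotypes lay between 23.4 and 27.2 FPKM. P5CDH rose over the decay single mutant in both doubles, with log2 ratios of 1.29 over ein5-1 and 1.66 over ski2-2, and fell by 1.39 on adding dcl2-1 to ski2-2 dcl4-2, in the authors' deposited table. Over Col-0 the ratios in the authors' deposited table were 0.30 for ein5-1 dcl4-2, with a q of 0.0133, and 0.71 for ski2-2 dcl4-2, with a q of 0.000211, both under 2-fold.

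The ratio of P5CS1 to PRODH1 levels sets a synthesis transcript against a breakdown transcript. It was 2.30 in Col-0 and 2.52 in dcl4-2, 0.330 in ein5-1, 0.345 in ski2-2 and 0.493 in ski2-2 dcl4-2 dcl2-1, and 1.56 to 2.22 in the 4 genotypes with low CCA1. It was 3.38 in ein5-1 dcl4-2 and 33.1 in ski2-2 dcl4-2. The wide spread of this ratio came mostly from P5CS1, since PRODH1 varied by 1.76-fold in all.

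GolS1, a galactinol synthase known to respond to drought, salt and heat, was the most abundant synthase of the family in Col-0. Its level was 33.7 FPKM in Col-0, 28.1 in dcl4-2 and 10.8 in dcl2-1, 39.5 in ein5-1 and 41.2 in ski2-2, 309.9 in ein5-1 dcl4-2 and 49.8 in ski2-2 dcl4-2, 20.2 in ein5-1 dcl2-1 and 10.6 in ski2-2 dcl2-1, and 16.9 in ein5-1 dcl4-2 dcl2-1 and 55.1 FPKM in ski2-2 dcl4-2 dcl2-1. The ein5-1 double stood alone at the top, since all other genotypes lay between 10.6 and 55.1 FPKM. The 4 genotypes with low CCA1 were lowest, at 10.6 to 20.2 FPKM, against 28.1 to 309.9 FPKM in the other 7. GolS1 rose in ein5-1 dcl4-2 over Col-0 with a log2 ratio of 3.20, over ein5-1 with 2.97 and over dcl4-2 with 3.46, and fell on adding dcl2-1 with -4.19, all with q = 0.000201 by the authors' deposited table. For ski2-2 dcl4-2 the log2 ratio over Col-0 was 0.58 with a q of 0.0464, and over ski2-2 it was 0.27 with q = 0.361, as listed in the authors' deposited table. On adding dcl2-1 to ski2-2 dcl4-2 the ratio was 0.14 with q = 0.628 by the authors' deposited table. The doubles were not tested against each other, and for GolS1 the ein5-1 double had 6.22 times the level of the ski2-2 double.

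GolS2, the synthase known for raising drought tolerance when overexpressed, was high in more genotypes. Its level was 3.68 FPKM in Col-0, 3.93 in dcl4-2 and 8.26 in dcl2-1, 37.1 in ein5-1 and 50.04 in ski2-2, 75.4 in ein5-1 dcl4-2 and 192 in ski2-2 dcl4-2, 10.4 in ein5-1 dcl2-1 and 8.04 in ski2-2 dcl2-1, and 6.07 in ein5-1 dcl4-2 dcl2-1 and 24.3 FPKM in ski2-2 dcl4-2 dcl2-1. Both decay single mutants were already 10.08 and 13.6 times above Col-0, without a test, and the doubles were higher still. GolS2 rose over Col-0 with a log2 ratio of 4.36 in ein5-1 dcl4-2 and 5.72 in ski2-2 dcl4-2 in the authors' deposited table. Over their decay single mutants the ratios in the authors' deposited table were 1.02 and 1.94, both past the call, although the first was 0.84 after quantile normalization and 0.97 under median-of-ratios scaling. It fell on adding dcl2-1 to both doubles, with ratios of -3.63 and -2.98 in the authors' deposited table. In the ein5-1 and ski2-2 backgrounds without dcl4-2, the levels with dcl2-1 were 3.57 and 6.22 times lower than without it, compared without a test.

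GolS3, the synthase known for its induction by cold, was low in most genotypes and highest in genotypes with dcl2-1. It was at 12.6 FPKM in ein5-1 dcl4-2 dcl2-1, 10.96 in ein5-1 dcl2-1, 10.4 in ski2-2 dcl2-1 and 6.70 FPKM in dcl2-1. It was at 1.88 FPKM in Col-0, 3.52 in dcl4-2, 2.14 in ein5-1, 2.07 in ski2-2, 2.14 in ein5-1 dcl4-2, 0.978 in ski2-2 dcl4-2 and 2.00 FPKM in ski2-2 dcl4-2 dcl2-1. The 4 high genotypes are those with low CCA1, and the fifth genotype with dcl2-1, the ski2-2 triple, had both a high CCA1 and a low GolS3. GolS3 rose on adding dcl2-1 to ein5-1 dcl4-2 with a log2 ratio of 2.56 and to ski2-2 dcl4-2 with 1.03 (q of 0.0318), as listed in the authors' deposited table. In ski2-2 dcl4-2 it fell over dcl4-2 with a ratio of -1.83 and over ski2-2 with -1.08 (q = 0.0230) by the authors' deposited table. The rise in ski2-2 dcl4-2 dcl2-1 and the fall over ski2-2 both ended at a q of 0.01 and as log2(FPKM + 1) differences, which were 0.60 and -0.63. The cold factor CBF3, which is known to act on GolS3, lay between 9.22 and 18.3 FPKM in the 4 genotypes with high GolS3 and at 0.0918 to 0.718 FPKM in the ski2-2 triple, both decay single mutants, dcl4-2 and Col-0. In ein5-1 dcl4-2 and ski2-2 dcl4-2, CBF3 stood at 5.44 and 9.02 FPKM with GolS3 at 2.14 and 0.978 FPKM.

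The synthases therefore exchanged rank between genotypes. The summed level of GolS1, GolS2 and GolS3 was 39.2 FPKM in Col-0, 387 in ein5-1 dcl4-2 and 243 FPKM in ski2-2 dcl4-2. GolS1 held 85.8% of the sum in Col-0 and 80.0% in ein5-1 dcl4-2, but 20.5% in ski2-2 dcl4-2, where GolS2 held 79.1%. In ein5-1 and ski2-2 GolS2 held 47.1% and 53.6%. GolS3 held 26.0% to 35.8% in the 4 genotypes with low CCA1 and 0.403% to 9.91% in the other 7. The longest runs of bases shared by these transcripts were 20 for GolS1 and GolS2, 18 for GolS1 and GolS3 and 26 for GolS2 and GolS3.

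**Figure D2:**
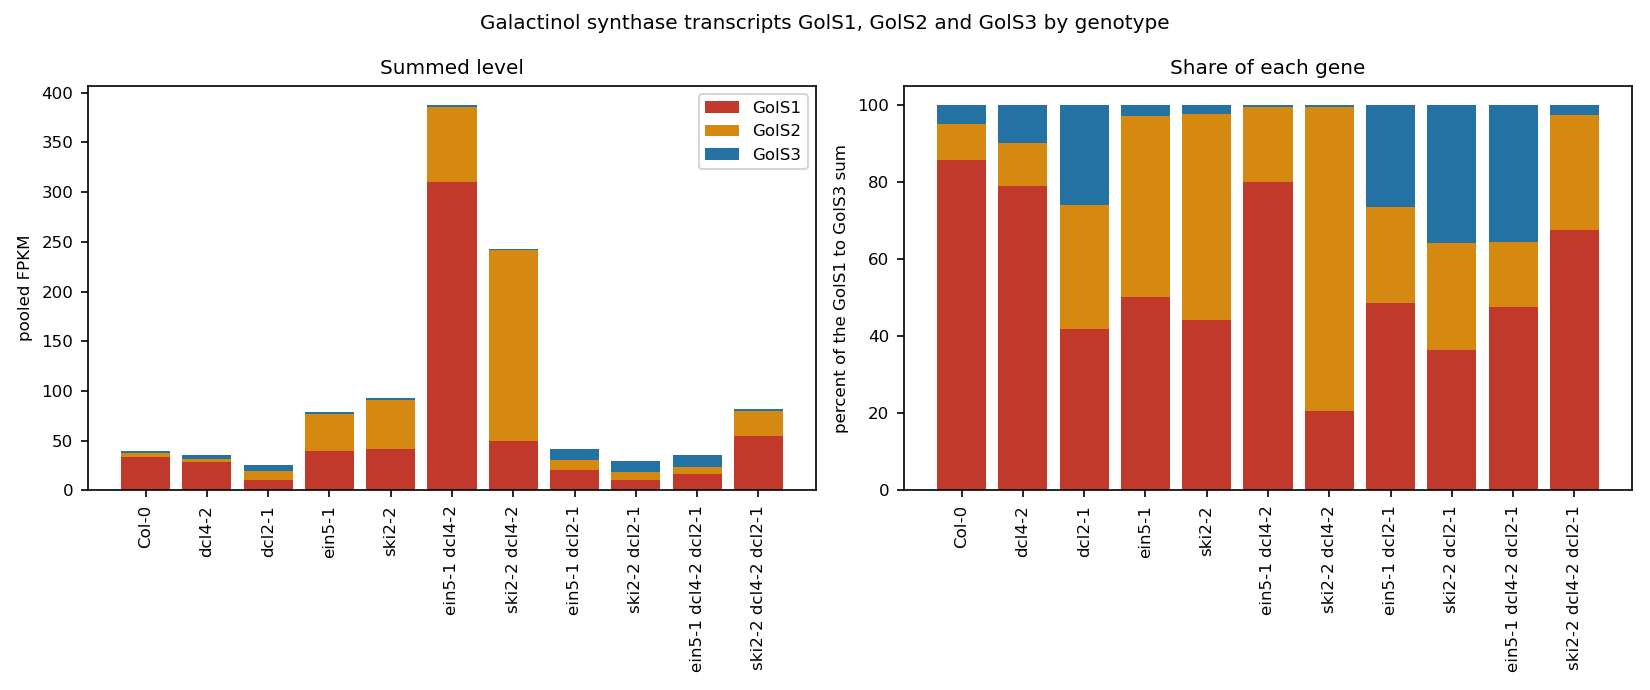
Summed pooled FPKM of GolS1, GolS2 and GolS3 in the 11 genotypes (left, stacked bars from 0) and the percent of that sum held by each gene (right). The sum is 387 FPKM in ein5-1 dcl4-2, mostly GolS1, and 243 FPKM in ski2-2 dcl4-2, mostly GolS2, while GolS3 holds 26.0% to 35.8% in dcl2-1, ein5-1 dcl2-1, ski2-2 dcl2-1 and ein5-1 dcl4-2 dcl2-1.

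Promoters of the synthases are shown because the levels of these 3 genes diverged. Windows, assembly and capitals are as given for P5CS1, and the windows are chr2:19370479-19370728 (minus strand) for GolS1, chr1:21207287-21207536 (plus strand) for GolS2 and chr1:3019389-3019638 (plus strand) for GolS3. These end at the annotated starts of GolS1 (chr2:19368798-19370478), GolS2 (chr1:21207537-21209635) and GolS3 (chr1:3019639-3021443), each with 4 exons.
GolS1: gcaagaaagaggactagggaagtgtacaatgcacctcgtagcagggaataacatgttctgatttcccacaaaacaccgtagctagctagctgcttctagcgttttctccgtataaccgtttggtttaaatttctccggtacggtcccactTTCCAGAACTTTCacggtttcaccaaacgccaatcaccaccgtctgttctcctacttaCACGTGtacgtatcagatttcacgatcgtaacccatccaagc
GolS2: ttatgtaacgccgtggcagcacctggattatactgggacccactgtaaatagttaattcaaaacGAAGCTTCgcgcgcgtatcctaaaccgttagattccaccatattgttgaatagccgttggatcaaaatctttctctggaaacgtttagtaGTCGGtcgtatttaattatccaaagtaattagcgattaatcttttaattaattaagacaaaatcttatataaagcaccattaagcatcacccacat
GolS3: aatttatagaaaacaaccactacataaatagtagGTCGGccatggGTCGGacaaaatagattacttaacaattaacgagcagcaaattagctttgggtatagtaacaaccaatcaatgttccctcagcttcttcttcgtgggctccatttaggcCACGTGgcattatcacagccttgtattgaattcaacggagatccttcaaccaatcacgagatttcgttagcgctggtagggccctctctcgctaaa
GolS1, highest in ein5-1 dcl4-2, held 2 overlapping heat shock element matches between 88 and 100 bases before the start and an ACGTG core read on both strands 37 to 42 bases before it. GolS2 held 1 heat shock element match 179 to 186 bases and 1 CCGAC core 92 to 96 bases before the start. GolS3 held 2 CCGAC cores 201 to 216 bases before the start and an ACGTG core read on both strands 91 to 96 bases before it, and no heat shock element match. Among all 10 genes CCGAC occurred in P5CS2, P5CR, GolS2, GolS3 and RS5, ACGTG in P5CR, GolS1 and GolS3, ACTCAT in PRODH1 and P5CDH, and the heat shock element in PRODH2, GolS1 and GolS2. With 10 windows these counts are a description only.

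RS5, the raffinose synthase known to act under abiotic stress, varied less than the galactinol synthases. Its level ran from 8.29 FPKM in dcl2-1 through a median of 12.6 FPKM to 25.7 FPKM in ski2-2 dcl4-2, and it was at 12.2 FPKM in Col-0 and 13.6 FPKM in ein5-1 dcl4-2. The ski2-2 double stood apart from the other 10 genotypes, which ended at 15.4 FPKM in ein5-1. The 4 genotypes with low CCA1 were again lowest, at 8.29 to 11.6 FPKM, against 12.2 to 25.7 FPKM in the other 7. RS5 rose in ski2-2 dcl4-2 over Col-0 (log2 ratio 1.08) and over dcl4-2 (1.04) in the authors' deposited table. Both sat at the edge of the call, with 0.99 over Col-0 and 0.93 over dcl4-2 under median-of-ratios scaling and 0.97 over dcl4-2 as a log2(FPKM + 1) difference. The ratio of ein5-1 dcl4-2 over Col-0 was 0.15 with q = 0.286 by the authors' deposited table. The summed synthase level was 3.21 times the RS5 level in Col-0, 9.47 times in ski2-2 dcl4-2 and 28.6 times in ein5-1 dcl4-2.

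Taken over the comparisons, the members called were few where the ein5-1 double was set against Col-0 and more where a double was set against its decay single mutant. In ein5-1 dcl4-2 over Col-0, 3 of the 10 genes rose (PRODH2, GolS1 and GolS2) and 0 fell, while 36.7% of all genes tested were called, 20.4% as higher and 16.3% as lower. The median log2(FPKM + 1) difference of the 10 genes was 0.33 and that of all genes 0.13, which quantile normalization moved to -0.08. Over ein5-1, 6 of the 10 rose (P5CS1, P5CS2, PRODH2, P5CDH, GolS1 and GolS2) and 0 fell, against 30.7% of all genes called (16.3% higher and 14.4% lower), with medians of 1.05 and 0.07. Over dcl4-2, 3 rose (PRODH2, GolS1 and GolS2) and 0 fell, against 35.4% called (19.7% higher and 15.7% lower), with medians of 0.44 and 0.14. The counts over Col-0 and over dcl4-2 are near or below the background, and these comparisons share the ein5-1 dcl4-2 libraries.

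In ski2-2 dcl4-2 over Col-0, 4 of the 10 genes rose (P5CS1, P5CS2, GolS2 and RS5) and PRODH2 fell, while 28.9% of all genes were called, 15.1% as higher and 13.8% as lower. The medians were 0.74 for the 10 genes and 0.06 for all genes. Over dcl4-2 the same 4 names rose and PRODH2 and GolS3 fell, against 27.8% called (14.7% higher and 13.1% lower), with medians of 0.87 and 0.06. Over ski2-2, 5 rose (P5CS1, P5CS2, P5CR, P5CDH and GolS2) and 2 fell (PRODH2 and GolS3), against 27.6% called (14.2% higher and 13.5% lower), with medians of 1.12 and 0.02. These comparisons share the ski2-2 dcl4-2 libraries.

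Adding dcl2-1 went the other way for most of the genes that had risen. The same double mutant values enter both sets of comparisons with opposite sign, so these changes are not independent of the rises. In ein5-1 dcl4-2 dcl2-1 over ein5-1 dcl4-2, GolS3 rose and 4 genes fell (P5CS1, P5CS2, GolS1 and GolS2), against 35.6% of all genes called (16.4% higher and 19.1% lower), with medians of -0.66 and -0.08. In ski2-2 dcl4-2 dcl2-1 over ski2-2 dcl4-2, PRODH2 and GolS3 rose and 5 genes fell (P5CS1, P5CS2, P5CR, P5CDH and GolS2), against 28% called (13.7% higher and 14.3% lower), with medians of -1.04 and -0.03. The triples ended in different states, since P5CS1 was at 49.5 FPKM in the ein5-1 triple and 13.7 FPKM in the ski2-2 triple, GolS1 at 16.9 and 55.1 FPKM, GolS2 at 6.07 and 24.3 FPKM and GolS3 at 12.6 and 2.00 FPKM. The clock genes divided the triples too, with CCA1 at 9.34 and 164.7 FPKM and PRR5 at 18.3 and 0.133 FPKM. From ski2-2 dcl4-2 to its triple, CCA1 went from 80.0 to 164.7 FPKM and PRR5 from 12.7 to 0.133 FPKM. The clock state and the loss of DCL2 therefore cannot be told apart in either background.

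**Figure D3:**
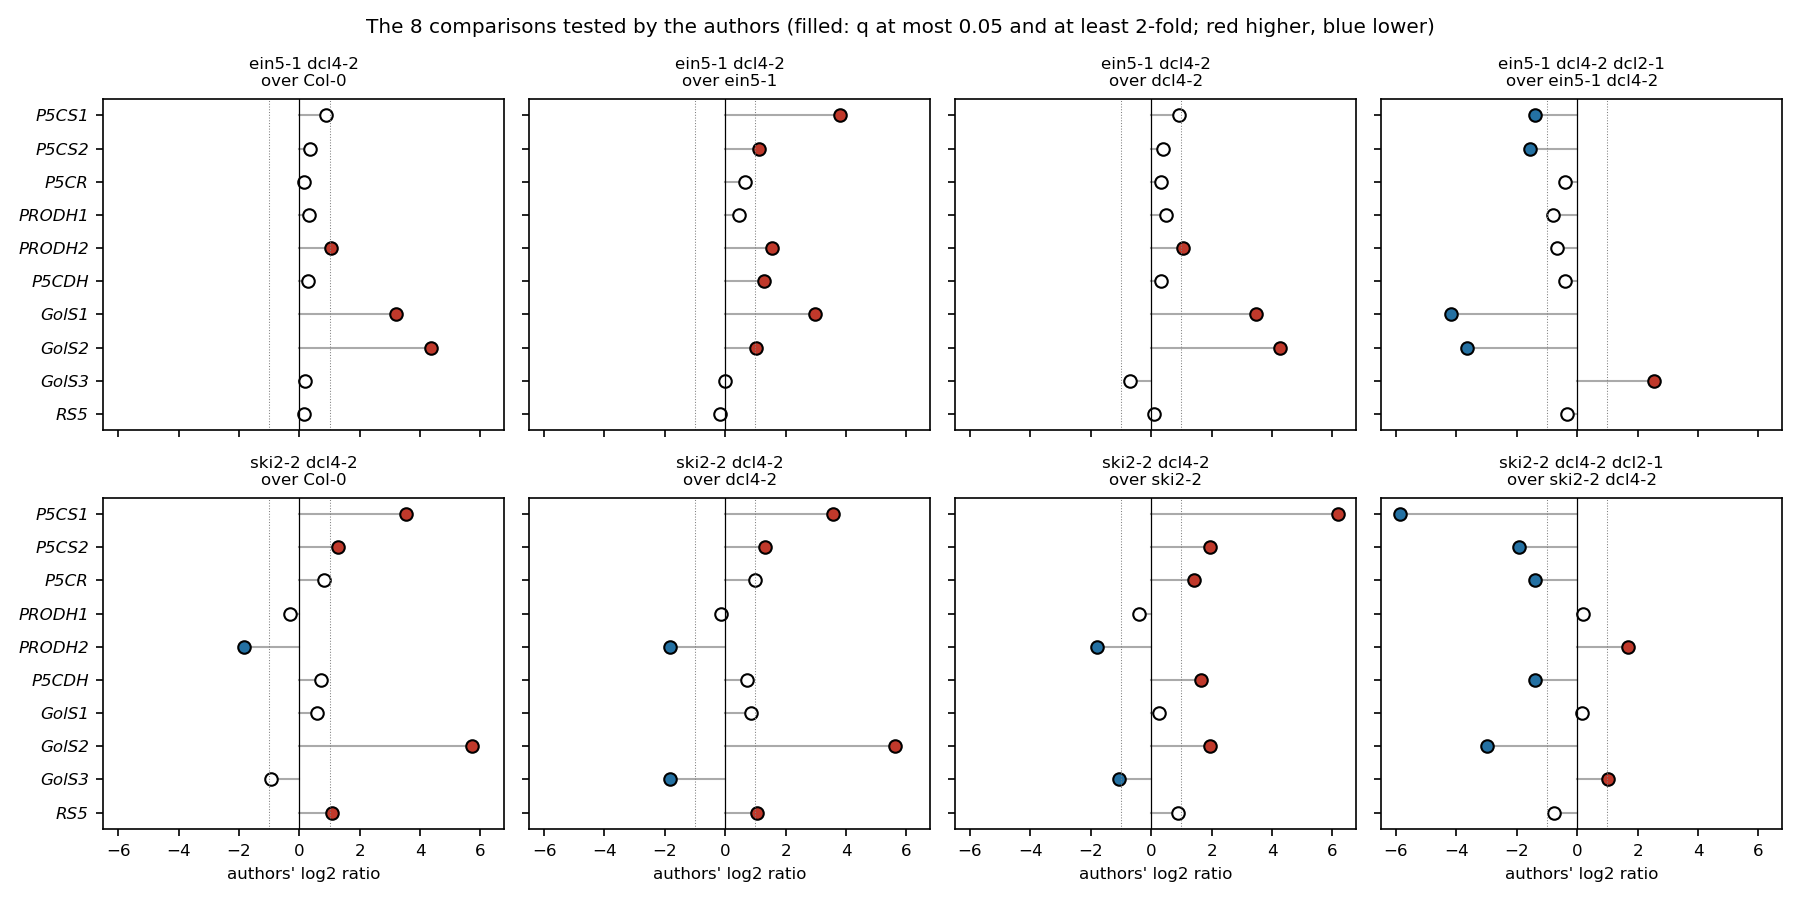
The authors' log2 ratios of the 10 genes in the 8 comparisons tested by the authors, 1 panel per comparison, with filled points for called genes (red higher, blue lower) and dotted lines at a log2 ratio of 1 and -1. Farthest from 0 are the points of P5CS1 over ski2-2 (6.18) and on adding dcl2-1 to ski2-2 dcl4-2 (-5.88).

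Against Col-0 and without a test, the genes past 2-fold were not the same in all single mutants. In ein5-1, GolS2 was past 2-fold above and P5CS1 past 2-fold below Col-0, while 7.43% of all genes were past 2-fold, 4% above and 3.43% below. The same pair of names was past 2-fold in ski2-2, with a background of 5.56% (2.9% above and 2.66% below), and in ski2-2 dcl4-2 dcl2-1, with a background of 5.48% (2.84% above and 2.64% below). In dcl4-2 none of the 10 was past 2-fold, against 1.51% of all genes (1.04% above and 0.468% below), and the widest gap was that of GolS3, at 3.52 against 1.88 FPKM. In dcl2-1, GolS3 was above and P5CS2 and GolS1 below Col-0, against 9.26% of all genes (5.09% above and 4.16% below), and the same names applied to ski2-2 dcl2-1, against 9.04% (4.99% above and 4.04% below). In ein5-1 dcl2-1, GolS2 and GolS3 were above and P5CS2 below, against 10.5% (5.64% above and 4.89% below), and in ein5-1 dcl4-2 dcl2-1 GolS3 was above and P5CS2 below, against 8.25% (4.71% above and 3.54% below). These comparisons share the Col-0 libraries.

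P5CS1 and GolS2 levels went in opposite directions outside the doubles and together within them. In the 9 genotypes other than ein5-1 dcl4-2 and ski2-2 dcl4-2, P5CS1 was lowest (9.33 to 13.7 FPKM) where GolS2 was highest (24.3 to 50.04 FPKM), in ein5-1, ski2-2 and the ski2-2 triple. P5CS1 was highest (68.5 and 70.5 FPKM) where GolS2 was lowest (3.68 and 3.93 FPKM), in Col-0 and dcl4-2. The 4 genotypes with low CCA1 lay between them on both genes. The doubles with dcl4-2 were the highest of all genotypes on both genes.

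**Figure D4:**
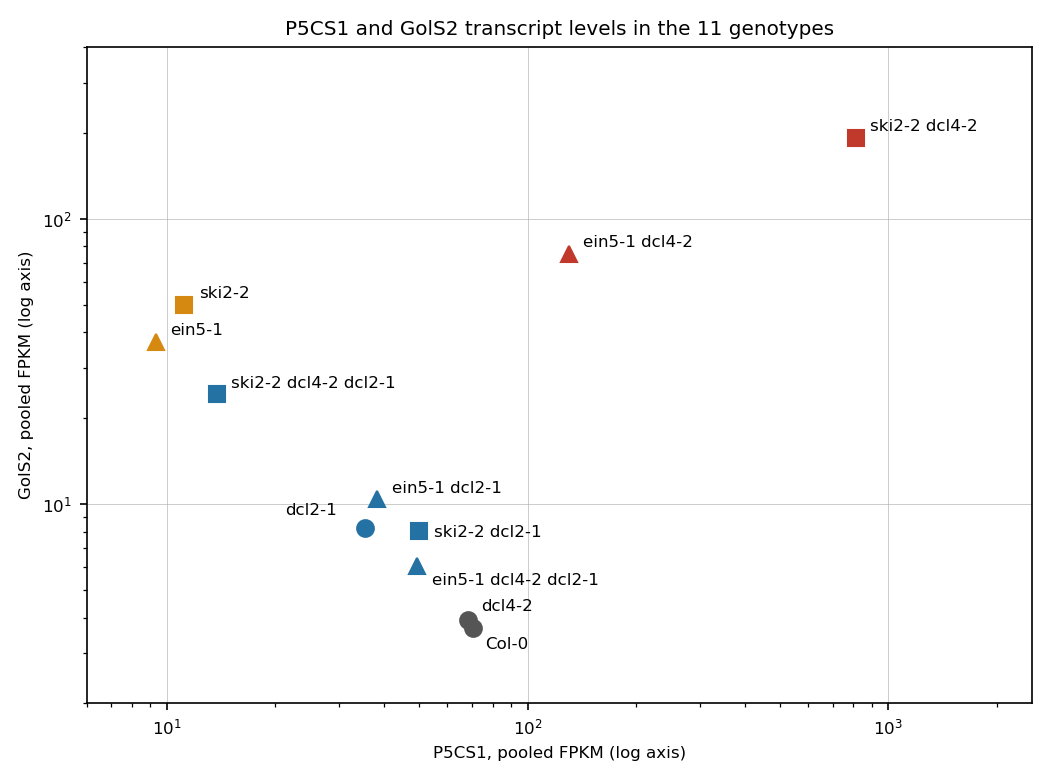
Pooled FPKM of GolS2 against P5CS1 on log axes, 1 point per genotype, with colours and shapes as in the plot of levels by genotype. From Col-0 at 70.5 and 3.68 FPKM to ein5-1 at 9.33 and 37.1 FPKM the 9 genotypes outside the doubles run downward, and ein5-1 dcl4-2 and ski2-2 dcl4-2 lie above them.

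Likeness of profiles was measured by Pearson's r of log2(FPKM + 1) over the 11 genotypes among 16204 genes that reached 5 FPKM in a genotype and were listed at 0 in none. It is given as a description, since the points are pooled columns that share clock state and genotype. The gene most like P5CS1 was P5CR (r = 0.967), followed by P5CDH (0.958) and GLL22 (0.955). The first 2 of 16204 thus encode enzymes that use P5C, P5CR in proline synthesis and P5CDH in proline breakdown. Without ski2-2 dcl4-2 the r of P5CR was 0.920 (rank 25) and that of P5CDH 0.975 (rank 1), without ein5-1 dcl4-2 they were 0.965 (rank 8) and 0.956 (rank 15), and without both doubles the values were 0.887 (rank 381) and 0.970 (rank 12). P5CS2 did not share this profile as closely, with an r of 0.699 to P5CS1 and a rank of 882. The r of P5CS1 with PRODH1 was -0.07 and with PRODH2 -0.29.

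For the other genes apart from P5CR, the 3 nearest profiles were all of genes outside the 10. GolS2 was most like PI4K GAMMA 7 (r = 0.989), AT1G16250 (0.969) and CNGC6 (0.969), and GolS3 most like ATMPK8 (0.989), AT4G32460 (0.979) and AT4G34790 (0.962). GolS1 was most like AT5G17000 (0.987), PGK (AT1G79550, 0.982) and AT3G16330 (0.982), and RS5 most like EXPA4 (0.983), AT1G24735 (0.968) and CPUORF47 (0.962). P5CDH was most like E1 ALPHA (0.965), AGT3 (0.960) and the asparagine synthetase gene ASN1 (0.959). For P5CS2 the nearest were AT3G48120 (0.978), PAS1 (0.974) and AT3G61690 (0.973), and for P5CR, after P5CS1, MLO10 (0.953) and GLL22 (0.950). PRODH1 was nearest to AT1G05562 (0.950), UGT75B1 (0.938) and mSFC1 (0.938), and PRODH2 to AT3G15770 (0.942), AIG2 (0.930) and AT3G51450 (0.926). Within the 10 genes, GolS2 and RS5 had an r of 0.776, GolS1 and PRODH1 0.803, PRODH2 and RS5 -0.81 and P5CS2 and GolS3 -0.80.

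Among steps next to proline, the genes that passed the call differed between the doubles, and the difference between their counts was not tested. Of 9 genes that feed proline or carry or use its products, the authors' deposited table had 5 higher and 0 lower in ein5-1 dcl4-2 than in Col-0, against 20.4% and 16.3% of all genes, and their median difference was 1.11 (0.13 for all genes). In ski2-2 dcl4-2 over Col-0, 1 rose and 2 fell, against 15.1% and 13.8% of all genes, with a median of 0.22 against 0.06. These shares of all genes, 36.7% in either direction for ein5-1 dcl4-2 and 28.9% for ski2-2 dcl4-2, are the background of each list count over Col-0 that follows. OAT, the ornithine aminotransferase that makes P5C from ornithine, was at 96.2 FPKM in ein5-1 dcl4-2, 33.8 FPKM in ski2-2 dcl4-2 and 18.8 FPKM in Col-0, and GDH2, a glutamate dehydrogenase, at 168, 46.5 and 27.3 FPKM. LHT1, an amino acid importer that carries proline, rose in both, to 43.4 and 47.1 FPKM from 10.7 FPKM. ARGAH2, an arginase that supplies ornithine, was at 1039.5 FPKM in ein5-1 dcl4-2 and 87.1 FPKM in ski2-2 dcl4-2, against 368 FPKM in Col-0, so it rose in the first and fell in the second. ARGAH1 also rose in ein5-1 dcl4-2, and ProT3, a proline transporter, fell in ski2-2 dcl4-2 from 9.21 to 1.98 FPKM. The 4 genotypes with low CCA1 also had little ProT3, 1.74 to 3.28 FPKM.

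Of the bZIP factors known to act on proline dehydrogenase genes, 2 of 5 had a row, and both rose in ein5-1 dcl4-2 over Col-0, with a median of 1.64. In ski2-2 dcl4-2 bZIP44 rose and none fell, with a median of 0.57. The level of bZIP1, which responds to energy shortage, was 20.1 FPKM in ein5-1 dcl4-2 and 5.03 FPKM in ski2-2 dcl4-2, against 6.46 FPKM in Col-0 and 2.35 and 2.96 FPKM in ein5-1 and ski2-2. Of 6 genes that mark carbon starvation, 2 rose and 0 fell in ein5-1 dcl4-2 (median 0.48), and 1 rose and 3 fell in ski2-2 dcl4-2 (median -0.94), so the first count is near its background of 36.7%, and the second is set against 28.9%. Among them SEN1 was at 33.2 and 5.07 FPKM in the doubles against 12.3 FPKM in Col-0, and DIN2 at 29.4 and 5.62 FPKM against a listed 0. TPS8 and BXL1 fell in ski2-2 dcl4-2, from 23.0 to 9.89 FPKM and from 29.5 to 11.3 FPKM. The decay single mutants were low as well, compared without a test. TPS8, BXL1 and SEN1 were at 10.5, 6.11 and 1.70 FPKM in ski2-2 and at 7.27, 3.07 and 0.596 FPKM in ein5-1. ASN1, whose profile was near that of P5CDH, was at 0.276 FPKM in ein5-1 and 0.269 FPKM in ski2-2 against 12.3 FPKM in Col-0.

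On the galactinol side, the precursor genes split. Of 9 genes for myo-inositol and UDP-galactose supply, 2 rose and 2 fell in ein5-1 dcl4-2 (median 0.54, over Col-0), and 3 rose and 2 fell in ski2-2 dcl4-2 (median -0.08), against 36.7% and 28.9% of all genes called, so the first count is near the background. MIPS1, the main myo-inositol phosphate synthase gene, was at 1189 FPKM in ein5-1, 935 in ski2-2 and 727 in the ski2-2 triple, 649.7 in ski2-2 dcl4-2, 244 in ein5-1 dcl4-2 and 299.9 FPKM in Col-0. It ranged from 93.6 to 145 FPKM where CCA1 was low (4 genotypes), and MIPS2 was split in the same way, with 413 FPKM in ein5-1, 70.9 in Col-0 and 14.9 FPKM in dcl2-1. MIPS3 fell in both doubles, to 3.78 and 8.74 FPKM from 32.8 FPKM, and so did VTC4, which frees myo-inositol from its phosphate, to 25.9 and 39.7 FPKM from 83.3 FPKM. UGE5, a UDP-glucose epimerase, rose in both doubles, to 28.0 and 5.07 FPKM from 1.57 FPKM, and UGE1 rose in ein5-1 dcl4-2, to 69.9 from 25.5 FPKM. In ein5-1 and ski2-2, UGE5 was at 6.64 and 4.97 FPKM and VTC4 at 45.7 and 44.8 FPKM, compared without a test. The ski2-2 dcl4-2 levels of these genes were thus near those of ski2-2. MIOX genes, which break myo-inositol down, rose in 3 of 4 members in ein5-1 dcl4-2 (median 2.57) and in 2 of 4 in ski2-2 dcl4-2 (median 3.81), and none fell, where 20.4% and 15.1% of all genes rose. The medians leave out genes under 1 FPKM in both compared genotypes, so they rest only on the genes that rose, in ski2-2 dcl4-2 MIOX1 and MIOX2. MIOX1 was at 84.6 and 85.5 FPKM in the doubles and at 3.29 to 9.36 FPKM in the other 9 genotypes. MIOX2 was at 7.42 and 12.9 FPKM in the doubles against 0.416 FPKM in Col-0.

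Genes named for raffinose turnover rose in 3 of 7 members in each double over Col-0 and fell in 0, where 20.4% and 15.1% of all genes rose, with medians of 1.32 in ein5-1 dcl4-2 and 0.75 in ski2-2 dcl4-2. The 3 names were the same, SIP1, SIP2 and AGAL1. SIP2, an alkaline alpha-galactosidase of the raffinose family, was at 178 FPKM in both doubles against 13.6 FPKM in Col-0, and AGAL1 at 78.4 and 40.3 FPKM against 18.6 FPKM. SIP1 was at 5.35 and 19.8 FPKM in the doubles against 0.911 FPKM. DIN10 did not pass the call in either double over Col-0, and was at 1.26 FPKM in ein5-1, 2.56 in ski2-2 and 4.38 in the ski2-2 triple against 20.8 FPKM in Col-0. Of 5 further galactinol synthase genes, 1 rose in ein5-1 dcl4-2, GolS7 at 1.14 FPKM against a listed 0, and 0 did in ski2-2 dcl4-2. GolS4 was at 6.00 FPKM in ein5-1 dcl4-2 and 18.4 FPKM in ski2-2 dcl4-2 and at most 0.1198 FPKM in every other genotype, but it did not pass, since the authors' deposited table gave it a q of 0.176 and 0.182. GolS5, GolS6 and GolS10 stayed under 1 FPKM throughout.

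Factors known to act on galactinol synthase genes rose in 5 of 5 members in ein5-1 dcl4-2 over Col-0 (median 2.02) and in 3 of 5 in ski2-2 dcl4-2 (median 2.15), and none fell, where 20.4% and 15.1% of all genes rose. Among the 5, CBF1 was only just over the 1 FPKM minimum, at 1.06 FPKM in ein5-1 dcl4-2 against a listed 0 in Col-0. The median in ski2-2 dcl4-2 rests only on the 3 that rose, since CBF1 and CBF2 were under 1 FPKM in both compared genotypes. HSFA2, a heat shock factor, was at 40.6 FPKM in ein5-1 dcl4-2 and 6.64 FPKM in ski2-2 dcl4-2, 13.2 in ein5-1, 8.65 in ski2-2 and 6.86 in the ski2-2 triple, against 0.847 FPKM in Col-0. These 5 genotypes, at 6.64 to 40.6 FPKM of HSFA2, held 24.3 to 192 FPKM of GolS2, and the other 6, at 0.662 to 1.27 FPKM of HSFA2, held 3.68 to 10.4 FPKM. Within the 5 the order differed, since ski2-2 dcl4-2 had the least HSFA2 and the most GolS2. The share of all genes divided in the same way is not given here, and a link between these genes was not tested. DREB2A, a dehydration response factor, was at 32.5 and 8.83 FPKM in the doubles against 1.22 FPKM in Col-0 and 0.797 and 0.705 FPKM in ein5-1 and ski2-2. CBF2 and CBF3 were at 4.63 and 5.44 FPKM in ein5-1 dcl4-2, and CBF3 at 9.02 FPKM in ski2-2 dcl4-2, against 0.384 and 0.618 FPKM in Col-0.

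**Figure D5:**
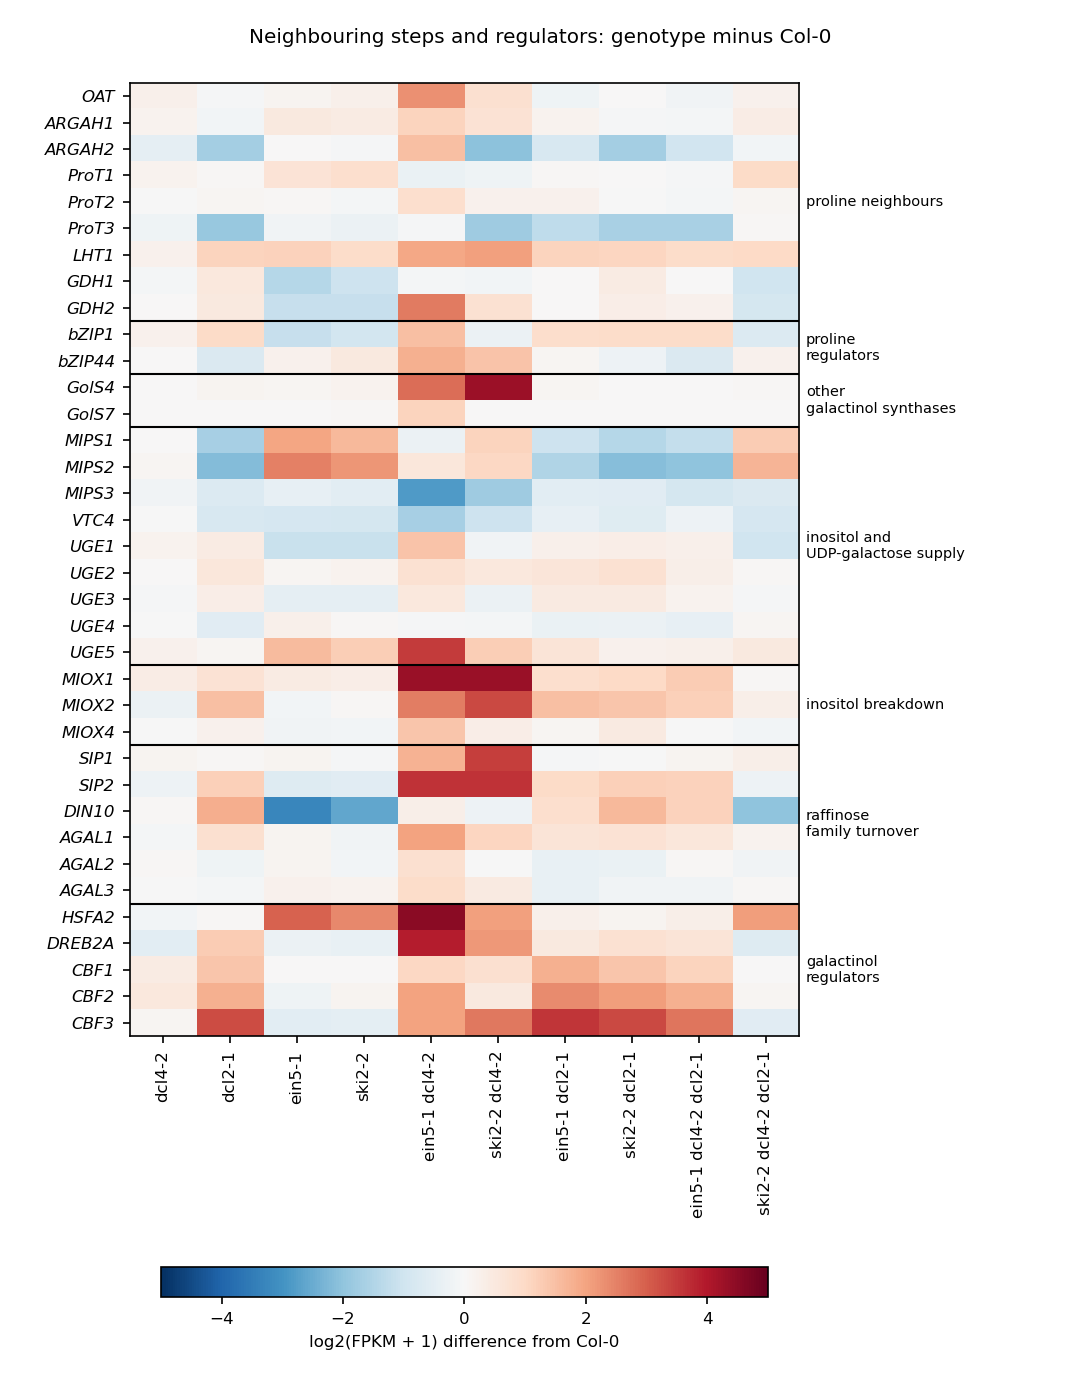
Difference in log2(FPKM + 1) from Col-0 for genes next to the proline and galactinol pathways and their known regulators, for genes that reached 1 FPKM in a genotype, with 1 column per genotype (red higher, blue lower, no test). HSFA2 and DREB2A are highest in ein5-1 dcl4-2 (40.6 and 32.5 FPKM), GolS4 and SIP1 in ski2-2 dcl4-2 (18.4 and 19.8 FPKM), and SIP2 is at 178 FPKM in both.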

How the data were processed

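The deposited table held the mRNA values of 33 libraries of 11 genotypes, 3 each, as 1 value per gene and genotype. Alignment was to TAIR10 by TopHat2 2.1.1 and values came from Cuffdiff (version not given in the sources used here), per the submitters' processing notes. In the deposited FPKM values the authors scaled fragments for the length of the transcript and the size of the library, and pooled the libraries of a genotype. The deposited log2 ratios, p-value and q-value columns are the authors' Cuffdiff output for 8 comparisons. Whether counting used strand is not stated, and read depth is unknown, so no interval can be given beyond the authors' test.

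The genes and all lists were chosen with earlier results of these data known. Genes were called at a q of at most 0.05, an absolute log2 ratio of at least 1 and at least 1 FPKM in either genotype, and in 8 further comparisons, without a test, by a log2(FPKM + 1) difference of at least 1. The planned limma fit, which needs library values, was not run. All 10 genes are named, and from each other list up to 4 called genes with the largest differences. List genes beyond these, namely ARGAH1, ProT3, MIPS1, MIPS2, DIN10, GolS4 and ASN1, were chosen after their values were seen. The 3 genes most alike in profile to each of the 10 are also named, among genes with at least 5 FPKM in a genotype and no listed 0. The bZIP11, bZIP53 and bZIP2 genes had no row used here. Of 33557 identifiers 32810 matched a TAIR10.1 name, and promoter windows were read from that assembly. Promoter coordinates are those of TAIR10.1, and the authors' build was TAIR10. Alternatives were no FPKM minimum or one of 5, 0.1 as pseudocount, no minimum log2 ratio, a q of 0.01, the authors' ratio replaced by the log2(FPKM + 1) difference, quantile normalization and median-of-ratios scaling. Code was tested on simulated data, in Python 3.11.15 (matplotlib 3.10.9, numpy 2.4.6, pandas 2.3.3).

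Of the clock list, 3 of 4 genes rose in ein5-1 dcl4-2 over Col-0 (median 2.24) and 2 in ski2-2 dcl4-2 (median 2.10). All 4 leaf markers fell in both doubles (medians -3.42 and -2.13). Of 5 root markers 2 rose in each (medians 2.15 and 3.31). Of 4 seed markers CRU3 rose in ski2-2 dcl4-2. Of 3 flower markers AP3 fell in both doubles and PI also in ski2-2 dcl4-2.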

Additional observations from a re-analysis of the deposited data

Results flagged for a closer look

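These results had called changes of opposite sign in the ein5-1 and ski2-2 backgrounds, as log2 ratios of the authors' deposited table, and the difference was not tested. Over Col-0, PRODH2 was at 1.06 in ein5-1 dcl4-2 and -1.82 in ski2-2 dcl4-2, a gap of 2.88, but the first call ended as a log2(FPKM + 1) difference (0.87). ARGAH2 was at 1.497 and -2.07, a gap of 3.56, and SEN1, a gene of dark and starvation responses, at 1.44 and -1.26, a gap of 2.70. Over dcl4-2, PRODH2 was at 1.04 and -1.83, a gap of 2.88, where the first call ended in the same way (0.86), and ARGAH2 at 1.96 and -1.60, a gap of 3.56. Over the decay single mutant, PRODH2 was at 1.53 and -1.80, a gap of 3.33, ARGAH2 at 1.47 and -2.002, a gap of 3.47, and the floral gene PI at 2.20 and -2.30, a gap of 4.50. On adding dcl2-1 to the doubles, ARGAH2 was at -2.45 in the ein5-1 and 1.95 in the ski2-2 background, a difference of -4.40. The comparisons of one background share the libraries of its double mutant, so these values are not independent of each other.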

How the results depend on the processing

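Among alternatives of the counts of genes called, 100 stayed within 1.5 times the main count and 6 did not. With no minimum log2 ratio, 7 of the 10 genes were called in ein5-1 dcl4-2 over Col-0 (68.2% of all genes) and 9 over dcl4-2 (67.7%), with 3 in each as reported. The same setting called 10 in ein5-1 dcl4-2 dcl2-1 over ein5-1 dcl4-2 (67.3% of all genes) and 10 in ski2-2 dcl4-2 over Col-0 (60.4%), with 5 in each as reported. With dcl2-1 in place of Col-0, by size and chosen after seeing the data, 5 genes were past 2-fold for ein5-1 dcl4-2 (34.2% of all genes) and 8 for ski2-2 dcl4-2 (27.9%). In that setting P5CS1, P5CS2, GolS1 and GolS2 were above and GolS3 below for ein5-1 dcl4-2. Genes that had not been called changed sign in 8 cases, all small. Under quantile normalization these were, over Col-0 in ein5-1 dcl4-2, P5CR at -0.10, GolS3 at -0.056 and RS5 at -0.066, GolS3 over ein5-1 at -0.17, RS5 over dcl4-2 at -0.10 and GolS1 on adding dcl2-1 to ski2-2 dcl4-2 at -0.0122. Under median-of-ratios scaling they were GolS3 over ein5-1 at -0.0197 and RS5 over dcl4-2 at -0.00385. For single genes, 526 alternatives kept direction and side of the threshold, 19 lost a call, 2 gained one and 5 crossed the 2-fold size without a test. The 19 were of PRODH2 in ein5-1 dcl4-2 over Col-0 and dcl4-2, P5CS2 and GolS2 in it over ein5-1, RS5 in ski2-2 dcl4-2 over Col-0 and dcl4-2, and GolS3 in ski2-2 dcl4-2 over ski2-2 and on adding dcl2-1 to it. The 2 gained were P5CR in ski2-2 dcl4-2 over Col-0 and dcl4-2 under quantile normalization. The likeness values without the doubles were also chosen after seeing the data. Leaving out each replicate and the replicate block were not run. No paired analysis was possible because the table holds 1 pooled value per genotype. The planned limma fit could not be made for the same reason. Low levels, such as PRODH2 and GolS3 in ski2-2 dcl4-2 (0.922 and 0.978 FPKM), rest on an unknown number of reads.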
